A study of Mus musculus with 12 samples.

Results

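The alternate promoters of the clustered protocadherin genes were examined for CTCF occupancy in organs of mouse embryos carrying wild-type or R567W CTCF. The 53 member genes were 12 alpha genes (Pcdha1 to Pcdha12), 22 beta genes (Pcdhb1 to Pcdhb22), 12 gamma A genes (Pcdhga1 to Pcdhga12) and 7 gamma B genes (Pcdhgb1, Pcdhgb2 and Pcdhgb4 to Pcdhgb8). The background, called all genes here, was the 21939 protein-coding genes. They were chosen by name, and a member was counted as occupied when the summit of a listed CTCF peak lay within 1 kb of its start site. The C-type isoform genes of the same clusters were left out. Peaks were listed at 25 of the 53 members (47.2%) in at least 1 list, near the 43.5% of all genes, and 28 members had no promoter peak in any list.

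CTCF was immunoprecipitated from the brain, heart and lung of embryos near the end of gestation (E18.5), and the DNA was sequenced. The strain background was C57BL/6 in the labels and C57BL/6 N in the study's methods. Embryos were wild type or homozygous for R567W, a single amino acid change in a zinc finger of CTCF that was introduced into the mouse gene by CRISPR/Cas9. All cells of the mutant embryos carried the change. Chromatin came from organ tissue in both genotypes, so a list reflects the organ with its mixture of cell types. Each organ and genotype was represented by 1 ChIP library, and no difference between genotypes within an organ has a replicate check.

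Clustered protocadherins are cell-surface adhesion proteins best known in the brain, where each neuron uses its own small set of isoforms and recognises its own branches by them. Each alternate exon has its own promoter, which is chosen at random in a cell. Alpha and gamma exons are spliced to constant exons shared by their cluster, while beta genes have no constant exons. Most of the alternate promoters carry a conserved sequence element that CTCF can bind. CTCF and cohesin bring a chosen promoter into a loop with distal enhancers, so the promoters of a cluster compete for the same enhancers. The comparison asked which of these promoters CTCF occupied when the zinc finger was altered.

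The members lay on the plus strand of chromosome 18 (mm10). The alpha start sites ran from chr18:36930184 to chr18:37020149, the beta start sites from chr18:37264938 to chr18:37517871, and the interleaved gamma A and gamma B start sites from chr18:37661793 to chr18:37765580. Neighbouring start sites were at least 3779 bp apart, with a median of 6890 bp, and no summit was within 1 kb of more than 1 member. A listed summit was therefore always assigned to a single promoter.

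The height of a peak is given as the summit pileup, the number of ChIP fragments stacked over the summit, which was recovered from the deposited fold enrichment and p-value. The lowest pileup in any list was between 7 and 9 reads, and the 86 member summits ranged from 8 to 130 reads with a median of 26. A member without a listed peak may still be bound below the threshold of the peak caller, so its pileup is unknown rather than 0. The study's methods state that CTCF sites in these promoters were hardly found at the default peak-calling settings. They name default options for peak calling in general. The lists held more summits than regions, 37336 against 36034 in wild-type brain, so some regions had more than 1 summit. The exact settings behind the lists are therefore not known here. To compare libraries, the pileup was divided by the genome-wide background of its list, which was 1.42 to 2.02 reads. The lists carry no spike-in correction.

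In brain, 16 wild-type and 19 mutant promoters of the group carried a peak. This was 30.2% and 35.8% of the members, against 24.1% and 34.3% of all genes. In heart, the numbers were 14 and 2, or 26.4% and 3.77%, against 14.6% and 10.2% of all genes. In lung, they were 18 and 13, or 34.0% and 24.5%, against 33.2% and 27.5% of all genes. The member share was thus near the background in brain and lung, above it in wild-type heart and below it in mutant heart. The change from wild type to mutant was 3, -12 and -5 members in brain, heart and lung, with a mean of -4.67 ± 7.51 (SD, n = 3 organs). It was negative in 2 of 3 organs, and flipping the signs of the organs in an exact permutation test (two-sided) gave p = 0.500, where 0.25 is the smallest p that 3 organs allow. With the longer list of each organ shortened to the length of the other, the changes were 3, -2 and 0 and the mean turned to 0.33.

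The occupied promoters were unevenly spread over the clusters. All 7 gamma B genes and 10 of 12 gamma A genes had a peak in at least 1 list, against 5 of 12 alpha genes and 3 of 22 beta genes. Beside the 43.5% of all genes, the alpha share of 41.7% was near the background, the beta share of 13.6% below it, and the gamma A share of 83.3% above it. No member was listed in all 6 lists. Pcdhga3, Pcdhga5, Pcdhga11, Pcdhga12 and Pcdhgb4 to Pcdhgb8 were each listed in 5. For all of these but Pcdhgb4 and Pcdhgb5, the missing list was mutant heart.

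**Figure D1:**
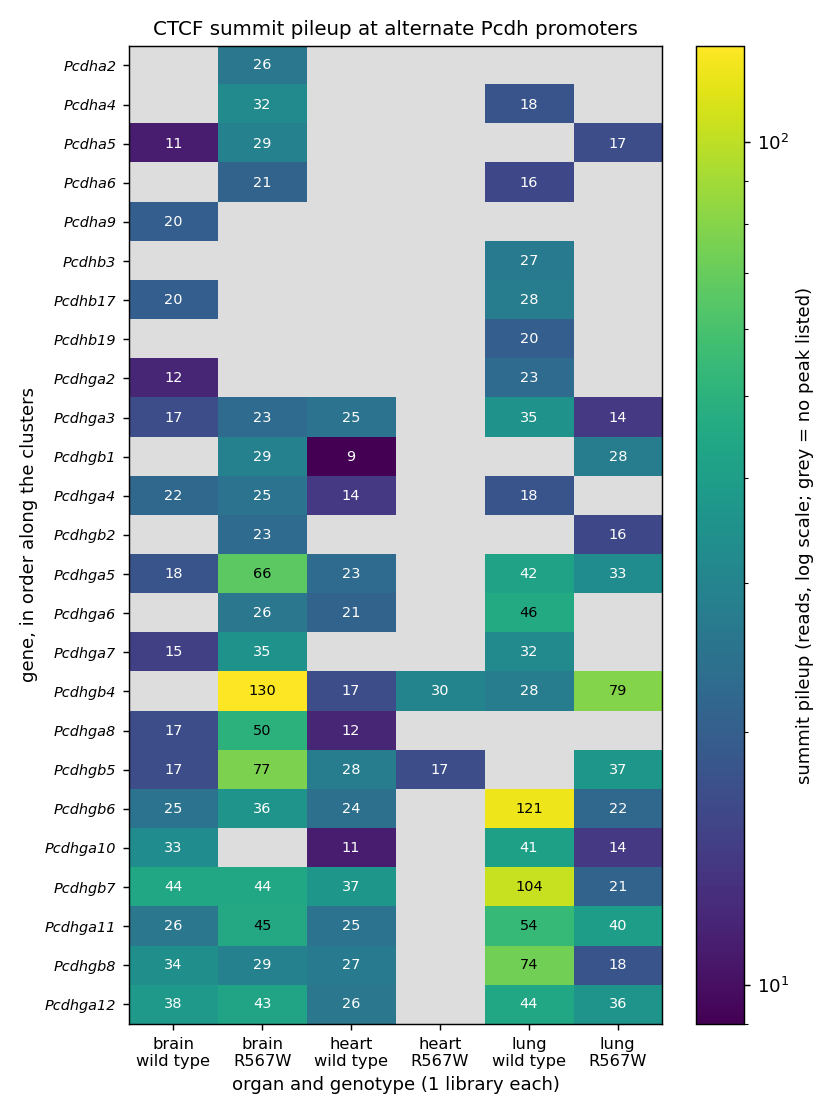
Summit pileup in reads (colour, log scale; the number is printed in each cell) for the 25 members with a promoter peak, in order along the clusters, in the 6 lists of 1 library each. Grey cells have no listed peak. The gamma rows are filled in most lists except mutant heart, where 2 cells are filled, and the beta rows have no mutant cell.

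Which members had a peak also differed between genotypes. In brain, 12 members were listed in both genotypes, 4 in the wild type alone and 7 in the mutant alone. The wild-type-only share was 25.0% of the 16 wild-type members, against 6.48% of all genes with a wild-type brain promoter peak. Member peaks in wild-type brain were low, with a median of 20 reads against 36 for all promoter peaks. Among genes within the same range of 11 to 44 reads, 9.99% had no mutant peak. The mutant-only share was 36.8% of the 19 mutant members, against 34.3% of all genes with a mutant promoter peak and 20.3% of those in the members' range of 21 to 130 reads.

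In heart, 2 members were listed in both genotypes, 12 in the wild type alone and none in the mutant alone, where 9.40% of all genes with a mutant heart promoter peak had no wild-type peak. The 12 members made up 85.7% of those listed in the wild type, against 36.9% of all genes with a wild-type heart promoter peak and 50.8% of those with a pileup in the members' range of 9 to 37 reads. In lung, 9 members were listed in both, 9 in the wild type alone and 4 in the mutant alone. The wild-type-only share was 50% of the members, against 27.7% of all genes and 15.8% of those within the members' range of 16 to 121 reads. The mutant-only share was 30.8%, against 12.7% of all genes and 8.65% of those in the members' range of 14 to 79 reads. The mutant lists of heart and lung were shorter than the wild-type lists, with 11760 summits against 21618 in heart and 34213 against 46373 in lung. When the longer list of each organ was shortened to the length of the other by q-value, wild-type heart kept 4 members (Pcdhga12, Pcdhgb5, Pcdhgb7 and Pcdhgb8) and lung had 13 in each genotype.

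In the alpha cluster, whose promoters face an enhancer downstream of the constant exons, peaks were listed at Pcdha2, Pcdha4, Pcdha5, Pcdha6 and Pcdha9. Wild-type brain had 2 of the 12 alpha members and mutant brain 4, against 24.1% and 34.3% of all genes. Heart had none in either genotype, against 14.6% and 10.2%. Wild-type and mutant lung had 2 and 1, against 33.2% and 27.5%. The rise in brain thus went the same way as that of all genes. Pcdha5 was the only alpha gene listed in both brain libraries. Its highest pileup was 11 reads in wild-type brain, 29 in mutant brain and 17 in mutant lung. The wild-type brain summit was 503 bp downstream of the start. Mutant brain had a summit of 21 reads at 446 bp, in a peak that overlapped the wild-type one, and its highest summit, of 29 reads, at -201 bp from the start, near the mutant lung summit at -217 bp. The downstream site was thus common to both brain lists, and the upstream site was listed in the mutant alone. The wild-type brain peak was lost with summits within 500 bp and at a −log10 q of at least 5. Under either alternative, no alpha gene was listed in both brain libraries.

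Pcdha4 was listed with 32 reads in mutant brain and with 18 reads in wild-type lung, at the same base of its coding sequence. Pcdha6 had 21 reads in mutant brain and 16 in wild-type lung, at 588 and 572 bp downstream. In mutant brain, Pcdha6 had a summit of 20 reads at -38 bp as well. For both genes, then, the genotype with a listed peak was opposite in brain and lung. But neither wild-type lung peak remained with lists of equal length or with summits within 500 bp, and that of Pcdha6 was also lost at a −log10 q of at least 5. The mutant brain peak of Pcdha4 was likewise lost with summits within 500 bp. Pcdha9 had a peak of 20 reads in wild-type brain alone, at -109 bp from the start, and Pcdha2 was listed in mutant brain alone. Of the 11 alpha summits, 6 lay in the coding sequence of the variable exon and 5 upstream of the start.

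In the beta cluster, whose genes are encoded by single exons without constant exons, 3 of 22 genes had a peak, and each of these peaks was in a wild-type list. Pcdhb17 had 20 reads in wild-type brain and 28 in wild-type lung, at 129 and 133 bp downstream of its start, in the 5′ UTR. Pcdhb3 had 27 reads in wild-type lung at -32 bp, and Pcdhb19 had 20 reads in wild-type lung at -50 bp. The mutant lists had no beta promoter peak in any organ, and neither heart list had one. Of all genes with a wild-type promoter peak, 6.48% in brain and 27.7% in lung had no mutant peak. Since 19 beta genes were unlisted in the wild type as well, the difference between genotypes rested on 1 gene in brain and 3 in lung. With lists of equal length, the wild-type lung peak of Pcdhb19 was lost.

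Gamma A promoters were occupied in 9, 8 and 9 of 12 genes in wild-type brain, heart and lung, and in 8, 0 and 5 in the mutant. The shares of all genes were 24.1%, 14.6% and 33.2% in the wild type and 34.3%, 10.2% and 27.5% in the mutant. With lists of equal length, Pcdhga2 and Pcdhga4 were lost from wild-type lung, and Pcdhga12 alone was kept in wild-type heart. Gamma A genes form the larger group of the gamma cluster, whose products share constant exons with gamma B and gamma C isoforms. Pcdhga1 and Pcdhga9 had no peak in any list. Of the 40 gamma A summits, 33 were upstream of the start and 34 lay between -94 and 5 bp from it. The exception was Pcdhga12, whose main summit was 301 to 319 bp downstream, in the 5′ UTR, in all 5 of its lists, with a further summit of 8 reads at 872 bp in mutant brain.

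Pcdhga5 had 18 reads in wild-type brain and 66 in mutant brain, 23 in wild-type heart, and 42 and 33 in wild-type and mutant lung. It was the highest gamma A peak of mutant brain. At Pcdhga11, 26 reads were recovered in wild-type and 45 in mutant brain, 25 in wild-type heart, and 54 and 40 in lung. Pcdhga12 had 38 and 43 reads in brain, 26 in wild-type heart, and 44 and 36 in lung. Both genes were unlisted in mutant heart.

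The pileup of Pcdhga3 was 17 reads in wild-type and 23 in mutant brain, 25 in wild-type heart, and 35 and 14 in lung. Pcdhga4 had 22 and 25 reads in brain, 14 in wild-type heart and 18 in wild-type lung. Pcdhga10 had 33 reads in wild-type brain, 11 in wild-type heart, and 41 and 14 in wild-type and mutant lung. Pcdhga10 was the highest of the 4 members listed in wild-type brain alone.

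Pcdhga6 had 26 reads in mutant brain, 21 in wild-type heart and 46 in wild-type lung. Pcdhga7 had 15 reads in wild-type brain, 35 in mutant brain and 32 in wild-type lung. Neither had a peak in mutant lung, and their wild-type lung peaks were the highest of the 9 listed in that genotype alone. The remaining gamma A genes were Pcdhga8, with 17 reads in wild-type and 50 in mutant brain and 12 in wild-type heart, and Pcdhga2, with 12 and 23 reads in wild-type brain and lung.

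Gamma B promoters had more listed members in the mutant than in the wild type in brain and lung. Wild type and mutant had 4 and 7 of 7 genes in each of these organs. The share of all genes rose likewise in brain, from 24.1% to 34.3%, and fell in lung, from 33.2% to 27.5%. In heart, the wild type had 6 of them and the mutant 2, against 14.6% and 10.2% of all genes. With lists of equal length, Pcdhgb1, Pcdhgb4 and Pcdhgb6 were lost from wild-type heart. None of the 4 wild-type gamma B genes was unlisted in the mutant of brain or lung, against 6.48% and 27.7% of all genes. The 3 genes listed in the mutant alone stand beside 34.3% and 12.7%. All but 1 of the 31 gamma B summits were upstream of the start, most of them within about 100 bp, with a median of -78 bp.

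In reads, Pcdhgb4 had the highest pileup of any member. It reached 130 reads in mutant brain, in the peak at chr18:37720083-37720546 with its summit at -54 bp from the start, and was not listed in wild-type brain, whose lowest listed pileup was 8 reads. Pcdhgb4 had 17 and 30 reads in wild-type and mutant heart, and 28 and 79 in wild-type and mutant lung. The mutant value was the higher one in both organs where both genotypes were listed. On the genome-background scale, Pcdhgb4 was at 64.3 in mutant brain and 55.5 in mutant lung, at the 88.3 and 68.3 percentile of all summits of those lists. Pcdhgb6 and Pcdhgb7 were higher on this scale in wild-type lung, at 79.3 and 68.1.

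Pcdhgb5 had 17 reads in wild-type and 77 in mutant brain, 28 and 17 in heart, and 37 in mutant lung. It was unlisted in wild-type lung. Pcdhgb4 and Pcdhgb5 were the only members with a peak in mutant heart. Pcdhgb1 had 29 reads in mutant brain, 9 in wild-type heart and 28 in mutant lung. Pcdhgb2, the remaining gamma B gene of the upstream part of the cluster, was listed in mutant brain with 23 reads and in mutant lung with 16.

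The 3 gamma B genes at the downstream end differed from these in lung. Pcdhgb6 had 25 reads in wild-type and 36 in mutant brain, 24 in wild-type heart, and 121 and 22 in wild-type and mutant lung. Pcdhgb7 had 44 and 44 reads in brain, 37 in wild-type heart, and 104 and 21 in lung. Pcdhgb8 had 34 and 29 reads in brain, 27 in wild-type heart, and 74 and 18 in lung. In wild-type lung these were the 3 highest member peaks, and in mutant lung they had 18 to 22 reads.

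The local background at these 3 summits was also raised in wild-type lung. It was 5.95, 4.93 and 4.42 times the genome background at Pcdhgb6, Pcdhgb7 and Pcdhgb8, against 1.00 to 1.04 times in mutant lung. The wild-type lung list as a whole had a median local background of 2.38 times the genome background, against 1.05 to 1.18 times in the other lists. Fold enrichment, which divides by the local background, was 12.1, 12.3 and 9.68 in wild-type lung and 9.49, 8.86 and 7.65 in mutant lung at the same promoters. Which control library, if any, the peak caller used for each list is not given in the sources used here, so the reads behind the local background are unknown. The part of the raised background in the pileup difference was not tested.

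**Figure D2:**
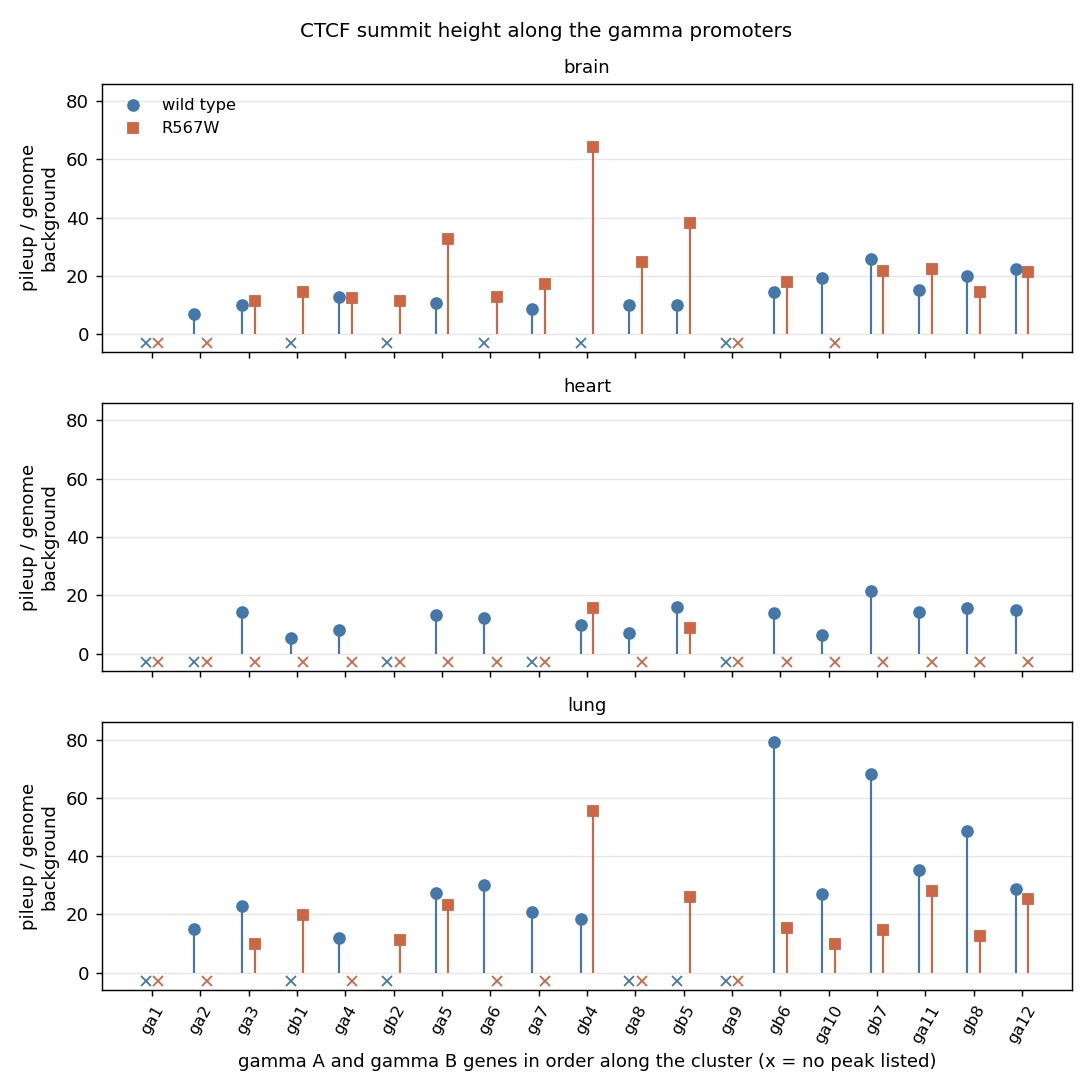
Summit pileup divided by the genome background of the list (vertical axis, no unit) for the 19 gamma A and gamma B genes in their order along the cluster, in brain, heart and lung. Circles are wild type, squares are R567W, and crosses mark promoters without a listed peak. In the mutant, Pcdhgb4 stands highest in brain and lung, while in wild-type lung the highest points are Pcdhgb6, Pcdhgb7 and Pcdhgb8 at the downstream end.

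Peak heights were compared at members listed in both genotypes of an organ, as the ratio of mutant to wild-type pileup on the genome-background scale, relative to the median ratio of all genes with a promoter peak in both lists. That median was a log2 change of 0.49 in brain over 4948 genes, -0.12 in heart over 2025 genes and -0.05 in lung over 5272 genes. Intervals are exact 95% binomial intervals of the 2 pileups and cover counting error only. The fold used to call a member was 2.

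In brain, the 12 shared members had a median centred log2 ratio of -0.08. They include Pcdha5, whose highest summits were at different sites in the 2 lists although the downstream site was shared, and without it, an alternative chosen after seeing the data, the median was -0.21. The centred log2 ratio was 1.44 at Pcdhgb5 (0.67 to 2.29) and 1.14 at Pcdhga5 (0.37 to 1.98), higher in the mutant. These were the 2 members past 2-fold higher, where 1.52% of all shared genes were called. No member was past 2-fold lower, where 7.50% of genes were called. The lowest log2 ratios were -0.97 (-1.73 to -0.21) at Pcdhgb8 and -0.74 (-1.37 to -0.10) at Pcdhgb7, and the intervals of the other 8 members included 0 or touched it. From fold enrichment in place of pileup, centred the same way, 3 members were past 2-fold higher in brain, namely Pcdhgb5 (1.25), Pcdhga5 (1.17) and, between them, Pcdhga8, against 5.56% of genes, and Pcdhgb8 (-1.30) was past 2-fold lower, against 8.27%.

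The direction of the brain median depended on the reference. Against the median pileup of all 29708 peaks shared by the 2 brain lists, promoters and other sites together, it was 0.69. On that scale 5 members were past 2-fold higher, where 30.3% of all shared genes were called. Pcdhgb5 and Pcdhga5 were still the highest, at log2 ratios of 2.21 and 1.90, and Pcdhgb8, at -0.20, was the only member below 0. None was past 2-fold lower, against 1.15% of genes.

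In heart, Pcdhgb4 had a centred ratio (not log2) of 1.73 (0.927 to 3.35) and Pcdhgb5 of 0.597 (0.306 to 1.13), and neither passed 2-fold. The share of all shared genes past 2-fold in heart was 1.68% higher and 2.96% lower. Neither member passed 2-fold from fold enrichment (4.54% of genes higher and 3.21% lower) or against all shared peaks (3.46% and 1.73%). With only 2 shared members, their median log2 ratio of 0.03 describes a pair of genes that lay on opposite sides of it.

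In lung, the 9 shared members had a median centred log2 ratio of -1.17, and 5 were past 2-fold lower against 7.09% of all shared genes. As centred ratios rather than log2 ratios, these were Pcdhgb6 at 0.202 (0.122 to 0.320), Pcdhgb7 at 0.224 (0.133 to 0.361), Pcdhgb8 at 0.270 (0.152 to 0.457), Pcdhga10 at 0.379 (0.191 to 0.710) and Pcdhga3 at 0.444 (0.221 to 0.847). Pcdhgb4 was the 1 member past 2-fold higher, at a ratio of 3.13 (2.01 to 5.01), against 1.63% of genes. Pcdhga5, Pcdhga11 and Pcdhga12 had ratios of 0.873, 0.823 and 0.909, with intervals that included 1. Against all peaks shared by the 2 lung lists the median was -0.53, and 3 members were past 2-fold lower, namely Pcdhgb6, Pcdhgb7 and Pcdhgb8, against 1.65% of genes. On that scale Pcdhga3 and Pcdhga10 had log2 ratios of -0.53 and -0.75, and Pcdhga5, Pcdhga11 and Pcdhga12 were above 0, at 0.45, 0.36 and 0.51. Pcdhgb4 was again the 1 member past 2-fold higher, against 18.6% of genes. From fold enrichment in place of pileup, centred the same way, the log2 ratios of Pcdhgb6, Pcdhgb7 and Pcdhgb8 were -1.08, -1.21 and -1.07 in place of -2.31, -2.16 and -1.89, and that of Pcdhgb4 was 0.85 in place of 1.65, no longer past 2-fold. The same 5 members were past 2-fold lower in this measure, against 14.2% of genes, and none was past 2-fold higher, against 22.8%. These calls depended on the centring, since the median over all shared genes was 0.73 on that scale. Before centring, the fold-enrichment log2 ratios of Pcdhgb6, Pcdhgb7 and Pcdhgb8 were -0.35, -0.48 and -0.34. Those of Pcdhga10, Pcdhga3 and Pcdhgb4 were -0.70, -1.05 and 1.59. The share of all genes past 2-fold was not counted before centring, so these values are given without a call.

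**Figure D3:**
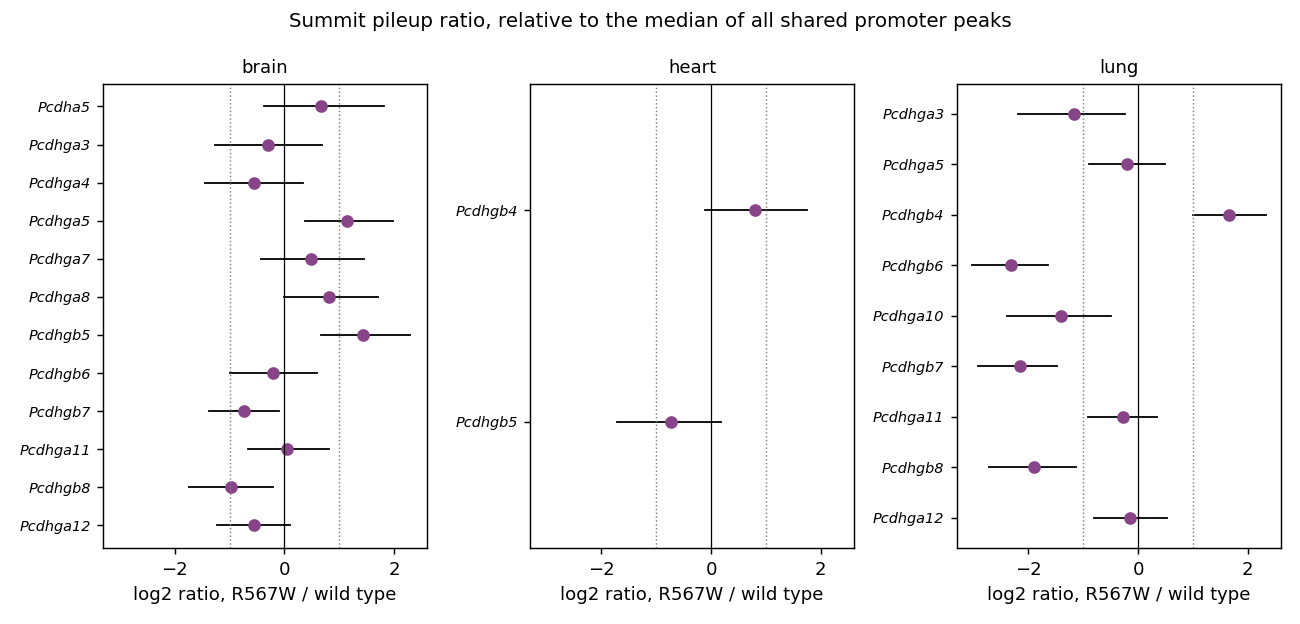
Log2 ratio of summit pileup, R567W over wild type, relative to the median of all shared promoter peaks, for members listed in both genotypes of brain, heart and lung. Points are the ratios, bars the exact 95% counting intervals, and dotted lines mark 2-fold. Pcdhgb5 and Pcdhga5 lie beyond 2-fold to the right in brain, and in lung Pcdhgb4 lies to the right while 5 members lie beyond 2-fold to the left.

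Among the 11 members listed in at least 4 lists, the highest summits of a gene in its lists fell within 11 to 54 bp of each other. Further, lower summits lay apart from these at Pcdhgb8 in wild-type lung (26 reads at -404 bp) and at Pcdhga12 in mutant brain. Pcdhga4 had the narrowest spread at 11 bp and Pcdhgb8 the widest at 54 bp. The alpha summits formed a pair of groups, -217 to -37 bp and 446 to 588 bp from the start.

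**Figure D4:**
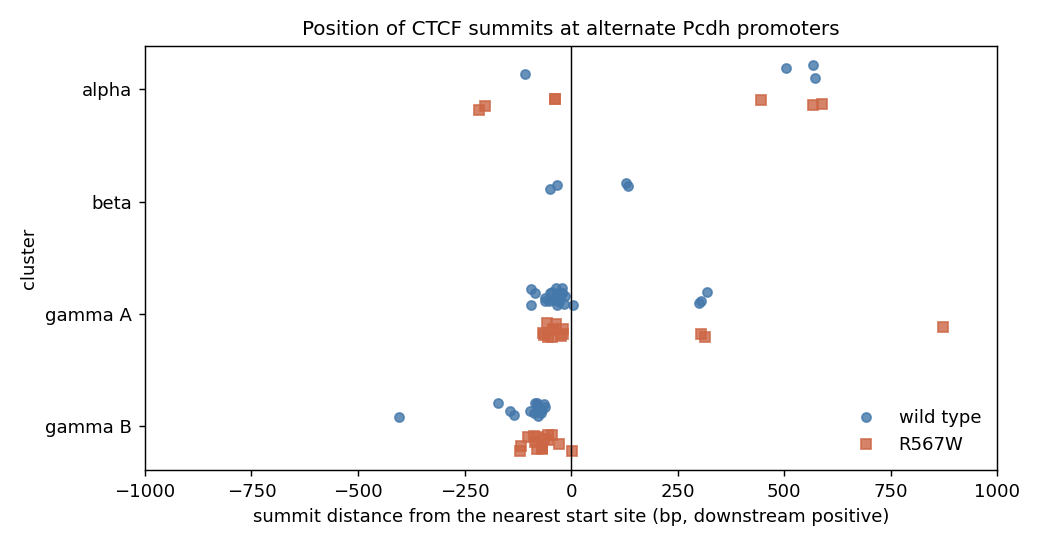
Distance in bp of each of the 86 member summits from the nearest start site of its gene, downstream positive, by cluster (vertical offsets within a row carry no value). Circles are wild-type and squares R567W lists. Gamma summits gather just upstream of the start, alpha summits lie both upstream and 446 to 588 bp downstream, and Pcdhga12 gives the gamma A group at 301 to 319 bp.

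The sequence around the start sites was scored with a matrix of the CTCF core motif of 19 columns, learned from the strongest wild-type brain peaks, on both strands. Within 250 bp of the start, a match was found at 11 of 12 alpha genes and 21 of 22 beta genes, but at 2 of 12 gamma A genes (Pcdhga3 and Pcdhga12) and none of the 7 gamma B genes. The share of all genes with such a match was 42.2%, and 36.2% when only the most upstream start of each gene was used. All 34 member matches were on the strand of the gene, against 5007 of the 9254 over all genes. The beta gene without a match was Pcdhb1. A second match, between 463 and 588 bp downstream of the start in the variable exon, was present at 10 of 12 alpha genes. Pcdha2 lacked the downstream match and Pcdha10 the one near the start, so 11 of 12 had the downstream match, against 37.9% of all genes with a match from 251 to 1000 bp. Within 1 kb on either side, 41 of 53 members had a match, against 67.8% of genes.

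Motif matches and listed peaks were concentrated in different clusters. Of the 34 members with a core match within 250 bp, 10 had a promoter peak in any list, or 29.4%, and of the 19 without one, 15 did, or 78.9%. Over all genes the order was the opposite, with 64.5% against 28.1%. Within each cluster that held both kinds, the order was that of all genes. Of those with and without a match, 5 of 11 and 0 of 1 alpha genes, 3 of 21 and 0 of 1 beta genes, and 2 of 2 and 8 of 10 gamma A genes had a peak. At the summits themselves, a core match lay within 100 bp of all 11 alpha summits and all 4 beta summits, at a median distance of 17 and 7 bp. It was found at 10 of 40 gamma A summits, all of Pcdhga3 and Pcdhga12, and at none of the 31 gamma B summits. In all promoter summits, the share with a core match was 60.5% to 86.4% over the 6 lists. The best gamma B scores near the start were 1.56 to 7.14 bits, under the threshold of 7.65 bits, which says only that no stretch of this window reached the threshold.

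**Figure D5:**
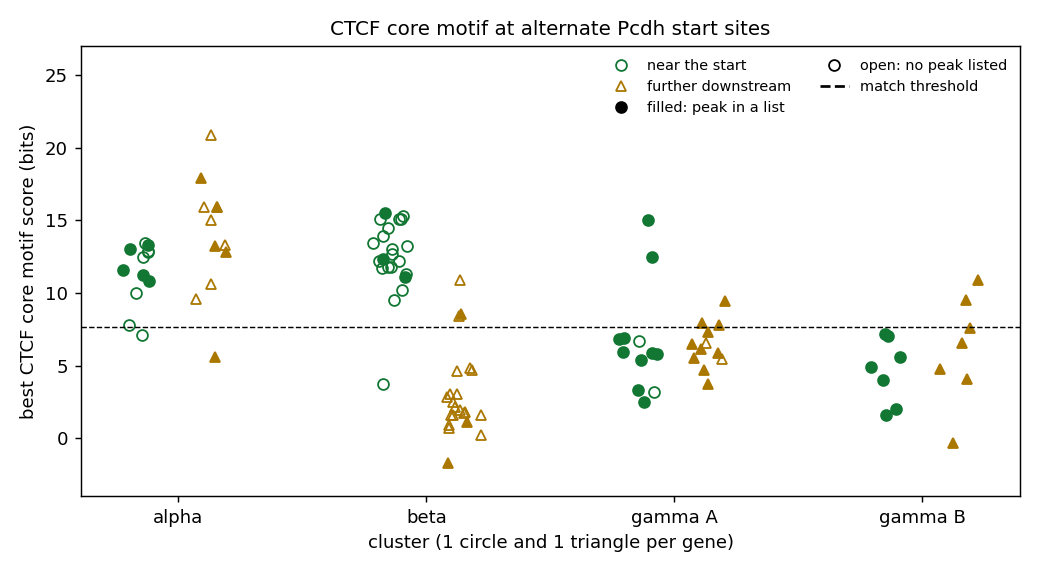
Best CTCF core motif score in bits for each member, by cluster: circles for the window within 250 bp of the start, triangles for 251 to 1000 bp downstream. Filled symbols are genes with a promoter peak in at least 1 list, open symbols those without, and the dashed line is the match threshold of 7.65 bits. All beta circles but that of Pcdhb1 lie above the line and most are open, whereas the gamma B circles lie below it and are all filled.

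The study asked about an upstream motif that some CTCF sites carry beside the core, here the consensus TGCAGTNCC with at most 2 mismatches within 30 bp 5′ of the core match on its strand. It was found at 5 of the 41 members with a core match, namely Pcdha4, Pcdha7, Pcdhb1, Pcdhga3 and Pcdhga10, against 3 of 41 in the mirrored window downstream. Over all genes with a core match the shares were 12.8% and 11.6%. Among listed summits it stood beside the core at Pcdha4 and Pcdhga3. Pcdha4 had its peak in mutant brain and wild-type lung, and Pcdhga3 was listed in every library but mutant heart. The study reports strong enrichment of upstream motifs at sites of this locus with decreased CTCF binding. It chose those sites by hand from the ChIP signal and examined the sequence flanking the core. The consensus used here is a different measure and was found almost as often in the mirrored window, so these counts cannot decide that point.

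Members of a cluster resemble each other in sequence, and the study kept uniquely mapped reads only. The share of 32-base words within 500 bp of the start that occur once in the genome had a median of 78.0% in alpha, 100% in beta, 98.1% in gamma A and 81.1% in gamma B. It was lowest at Pcdhgb4, with 71.0%, and was 77.5%, 80.4% and 81.1% at Pcdhgb5, Pcdhgb6 and Pcdhgb7 and 100% at Pcdhgb8. A read that fitted several places was kept in neither genotype, and the effect on these values was not tested.

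For comparison, 2, 3, 2, 1, 2 and 1 of the 5 C-type genes had a promoter peak in brain, heart and lung, with the wild type before the mutant in each organ. Of 12 non-clustered protocadherin genes, which encode related adhesion proteins elsewhere in the genome, 6 had one in each brain list, 2 in each heart list, and 4 and 5 in wild-type and mutant lung. Of all genes, 24.1% and 34.3% had one in wild-type and mutant brain, and 33.2% and 27.5% in wild-type and mutant lung. The non-clustered genes thus had the same number listed in both genotypes of heart. There, the C-type genes went from 2 to 1, the alternate members from 14 to 2 and all genes from 14.6% to 10.2%. With lists of equal length, 4 alternate members were listed in wild-type heart. The difference between these gene groups was not tested.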

How the data were processed

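The 12 samples of the labels were 6 CTCF ChIP and 6 input libraries, with a peak list for each ChIP library. Per the study's methods, reads were trimmed with Trim Galore, aligned with Bowtie2 to the mixed mm10 and hg38 genomes (human HEK293T chromatin was the spike-in), filtered to unique reads, and peaks were called per library with MACS2 at default options. The deposited lists held a score (not used), fold enrichment (the ratio of summit pileup to local background, each plus 1), and −log10 p-value and q-value.

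Pileup and background were solved from the authors' fold enrichment and p-value. All lines fitted to within 0.01 on the −log10 scale, and 100.0% of 19819 simulated lines were recovered. Start sites were those of GENCODE M21 (basic). All 53 members matched, Pcdha10 by its RefSeq start. Python 3.11.15, numpy 2.4.6, scipy 1.17.1 and matplotlib 3.10.9 were used. The core motif matrix came from 1908 sites of 2000 peaks, at p of 1e-04. With 1 library a group, ratios had no test. Members with a peak in at least 4 lists were named with values. So were members in a list where fewer than 4 of their cluster had a peak. The same held for the 3 highest peaks of a single genotype in each organ. The members and lists were chosen with earlier results of these data known. Alternatives were other windows, start sites, q-values, list lengths and scalings, and, both added after seeing the data, RefSeq starts and leaving out members with summits over 100 bp apart between genotypes.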

Additional observations from a re-analysis of the deposited data

Results flagged for a closer look

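The number of members with a promoter peak moved in opposite directions between organs. It was higher by 3 in mutant brain and lower by 12 in mutant heart, a gap of 15, and lower by 5 in mutant lung, a gap of 8 from brain. The all-gene share moved likewise, from 24.1% to 34.3% in brain, 14.6% to 10.2% in heart and 33.2% to 27.5% in lung. The difference between organs was not tested, since each organ had 1 library per genotype. With lists of equal length the heart difference was -2 and the lung difference 0.

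At 3 shared members the centred log2 pileup ratio also had opposite signs in 2 organs, and this was not tested either. Pcdhgb5 was above 0 in brain and below it in heart, a gap of 2.18. Pcdhga5 was above 0 in brain and below it in lung, a gap of 1.34, and Pcdhga11 had a gap of 0.33 between the same organs. For both of these genes the counting intervals of the 2 organs overlapped, and the lung ratio was above 0 against all shared peaks (0.45 and 0.36).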

How the results depend on the processing

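Over 15 results and 98 alternatives, 3 values changed sign. RefSeq starts, chosen after seeing the data, changed no count, and leaving out members with summits over 100 bp apart, chosen likewise, changed no direction. With summits within 500 bp, the lung difference was -3 members. At a −log10 q of at least 5, the brain difference was 5 and the mean over organs -2.67. With lists shortened to equal length, wild-type heart had 4 members, the differences were -2 in heart and 0 in lung, and the mean over organs turned to 0.33 (exact sign-flip permutation p = 1.00). This alternative removes the least significant peaks of the longer list. Leaving out each organ in turn gave means from -8.5 to -1.0. The median ratio turned to 0.69 in brain against all shared peaks and to -0.05 in heart with fold enrichment, and the cause was not tested. At the stricter core-motif threshold, 22 of 53 members had a match, against 22.4% of all genes, and with at most 1 mismatch 0 members had the upstream motif, against 1.86% of genes with a core match. The sign-flip test paired genotypes by organ, and no replicate numbers pair libraries within one. Depth limits the low peaks: a pileup of 11 reads has a counting interval of 5.49 to 19.7.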
